A study of Homo sapiens with 8 samples.

Results

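The region of chromosome 15q11-q13 that is lost or silenced in Prader-Willi and Angelman syndromes was described here by the H3K9me3 signal at 36 promoter windows of 8 of its genes. The members were all rows on chromosome 15 of both deposited promoter count tables that carried the name SNHG14 (22 windows), SNRPN (4), SNURF (2), ATP10A (4), UBE3A (1), NDN (1), MAGEL2 (1) or MKRN3 (1), out of 38157 windows in all. They span 2.3 Mb in hg19. Each window was kept on its own, in order along the chromosome. The genes were chosen by measured values, the log2 ratio of H3K9me3 to input at these windows in these libraries, so that level is described below and not tested.

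Cells of the established line SiHa, derived from a cervical squamous carcinoma that carries a papillomavirus, were placed in a transwell chamber, whose porous membrane lets cells cross. At 10 h the migrated cells, which had crossed, and the non-migrated cells, which had not, were collected apart. Chromatin of each fraction was sequenced after immunoprecipitation of histone H3 trimethylated at lysine 9 (H3K9me3) and as input, which is sonicated chromatin without antibody. The 4 groups were thus migrated H3K9me3, migrated input, non-migrated H3K9me3 and non-migrated input, all from unmodified SiHa cells. Each had 2 libraries, 1 in each of 2 paired replicate sets, and the 2 sets were made with different library kits, each used for both fractions.

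In this region most genes are used from only 1 of the parental copies. MKRN3, MAGEL2, NDN, SNURF-SNRPN and the long host RNA SNHG14 are transcribed from the paternal copy, where the start of SNURF-SNRPN lacks the DNA methylation that the maternal copy carries, and this start is part of the imprinting centre that sets the state of the domain. SNHG14 holds tandem arrays of small nucleolar RNAs and in neurons runs on as an antisense RNA across UBE3A, which is then used from the maternal copy, while other cell types use both copies of UBE3A. H3K9me3 is a mark of silenced chromatin, and at imprinted control regions it lies on the methylated copy, where ZFP57 and its partner KAP1 are known to recruit it. UBE3A is also the E6-associated ubiquitin ligase that the E6 protein of high-risk papillomaviruses, as carried by SiHa, uses to degrade p53. The libraries do not separate parental copies, so a value below is the sum of all copies present in the cells.

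3 RefSeq promoters are shown, chosen by gene and not matched to the measured windows by position. They are the shared start of SNURF and SNRPN in the imprinting centre, MAGEL2, whose window had one of the highest H3K9me3 levels outside SNHG14, and UBE3A, whose window had the lowest. Each run of 300 bases reaches from 250 bases before to 50 after the start, is read 5′ to 3′ on the gene's strand in GRCh38.p14 and has its CG dinucleotides, the sites of DNA methylation, in capitals. The shared SNURF and SNRPN promoter is at chr15:24954737-24955036 on the plus strand, the MAGEL2 promoter at chr15:23647818-23648117 on the minus strand and the UBE3A promoter at chr15:25438975-25439274 on the minus strand.
SNURF and SNRPN: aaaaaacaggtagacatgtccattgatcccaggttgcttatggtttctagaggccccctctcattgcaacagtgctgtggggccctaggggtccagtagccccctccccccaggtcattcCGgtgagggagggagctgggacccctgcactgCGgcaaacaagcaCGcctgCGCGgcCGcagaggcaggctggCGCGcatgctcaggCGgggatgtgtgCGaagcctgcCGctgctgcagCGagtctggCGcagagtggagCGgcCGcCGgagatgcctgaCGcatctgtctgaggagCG
MAGEL2: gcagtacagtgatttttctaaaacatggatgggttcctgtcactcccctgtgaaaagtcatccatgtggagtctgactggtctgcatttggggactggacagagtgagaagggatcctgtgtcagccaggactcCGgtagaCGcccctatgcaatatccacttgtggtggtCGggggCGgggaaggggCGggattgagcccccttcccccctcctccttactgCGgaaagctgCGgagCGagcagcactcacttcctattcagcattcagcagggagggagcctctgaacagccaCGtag
UBE3A: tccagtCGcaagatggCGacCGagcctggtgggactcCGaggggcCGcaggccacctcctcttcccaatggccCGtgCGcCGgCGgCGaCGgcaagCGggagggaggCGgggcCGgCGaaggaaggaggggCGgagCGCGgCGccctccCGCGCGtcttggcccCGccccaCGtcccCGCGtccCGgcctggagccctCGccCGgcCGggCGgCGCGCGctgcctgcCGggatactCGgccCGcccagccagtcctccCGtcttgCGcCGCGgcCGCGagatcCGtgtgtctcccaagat

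All 8 genes had a promoter in the RefSeq table, where the median promoter of 35116 held 14 CG dinucleotides. The SNURF and SNRPN promoter held 18, and the other 3 SNRPN starts held 7, 2 and 11. CG counts of the remaining genes were 44, 39 and 38 at the UBE3A starts, 37 at ATP10A, 35 at NDN, 15 at MKRN3 and 9 at both MAGEL2 and SNHG14. The SNURF and SNRPN promoter matched TGCCGC, the core motif of ZFP57, on either strand at 2 places, and NDN, ATP10A and the last SNRPN start (24956050 to 24956349) matched it at 1 place each, against 16.7% of all RefSeq promoters with a match. The motif of the activator NRF1 was found at NDN, at SNHG14 and at the first and last SNRPN starts (24856321 to 24856620 and 24956050 to 24956349), against 5.78% of promoters. AANATGGC, that of YY1, was found at 2 of the 3 UBE3A starts and at the last SNRPN start, against 6.58% of promoters. All motifs were searched on both strands, and a match describes letters only; these promoters were not tied to the windows by position because the windows are in hg19.

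The windows of set 1 held between 88028 (migrated H3K9me3) and 684949 (migrated input) reads per library and those of set 2 between 984835 and 1729061. With a median of 1 read per window in the migrated H3K9me3 library of set 1, against 17 in that of set 2, values of set 1 at single windows rest on few reads and set 2 carries most of the precision. The labels call set 2 a second biological replicate but do not describe separate cultures, so the spread behind the p-values may be partly technical. That spread is how far differences between the fractions disagree between the sets, on 2 residual degrees of freedom. It is moderated by a variance shared across all tested windows, with 33.1 prior degrees of freedom. Levels below are log2 of H3K9me3 over input after scaling by trimmed means of M values (TMM). They are averaged over both fractions and both sets and given with limma's SE. H3K9me3 over input was fitted apart in each set, so this SE leaves out differences in level between the sets. The median of all 36440 tested windows was -0.345 on this scale (0.787-fold), so levels are relative and not absolute. A change is the migrated minus the non-migrated log2 ratio of H3K9me3 over input. All positions of windows are hg19.

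All 36 member windows passed the filter on low reads. Their median level was 2.14 (4.4-fold over input), with a range of -0.971 to 2.82. In the same fit, 33 of the 36 had an adjusted p under 0.05 for more H3K9me3 than input, as did 11.9% of all tested windows, and 0 of 36 for less, against 31.3% of all tested windows. These counts restate how the genes were chosen and nothing is read from them. The other 1156 tested windows of chromosome 15 had a median of -0.552, with 129 enriched (11.2%). The 3 member windows that did not pass were those of MKRN3 and UBE3A and the second of ATP10A.

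SNHG14 supplied most of the windows and most of the reads. Its 22 windows had a median level of 2.35 (5.11-fold), from 1.27 to 2.82. The 14 windows of 2.1 kb and the 8 wider ones, up to 34.3 kb, had medians close to each other, 2.37 and 2.32. All are on the plus strand except window 2, which overlaps window 1 on the opposite strand. RefSeq lists 30 SNORD116 and 48 SNORD115 copies within SNHG14, tandem repeats of near-identical small nucleolar RNA genes, but reads of such copies can map to more than 1 place and the windows were not matched to single copies. The sources used here do not give how reads with several map positions were treated.

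The level along SNHG14 formed 2 high stretches with lower windows before, between and after them. This grouping was made after the values were seen and is a description. The first 3 windows, from 25275020 to 25287221, had a median of 1.85. Windows 4 to 13, between 25294624 and 25339284, had a median of 2.44 (5.41-fold), and the first 8 of these began 2644 to 2795 bases apart. The next 3 windows, up to 25404468, had a median of 1.55, windows 17 to 20 (25413870 to 25496106) had 2.37, and the last 2 had 1.45.

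In set 2 the stretches did not overlap with the windows around them in either fraction. The stretches were drawn after these values were seen, so this separation is part of their description and no support for them. Windows 4 to 13 lay between 2.44 and 3.18 in migrated cells and between 2.15 and 2.58 in non-migrated cells. Windows 17 to 20 lay between 2.62 and 2.76 in migrated cells and between 2.17 and 2.31 in non-migrated cells. The other 8 windows did not exceed 2.27 in migrated cells or 1.73 in non-migrated cells. In set 1 the stretches overlapped with their neighbours in both fractions. There the stretches ranged from 1.69 to 3.19 in migrated and from 1.37 to 3.68 in non-migrated cells, while window 3 had 2.36 in migrated cells and window 22 had 3.37 in non-migrated cells, the last on 3 input reads.

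**Figure D1:**
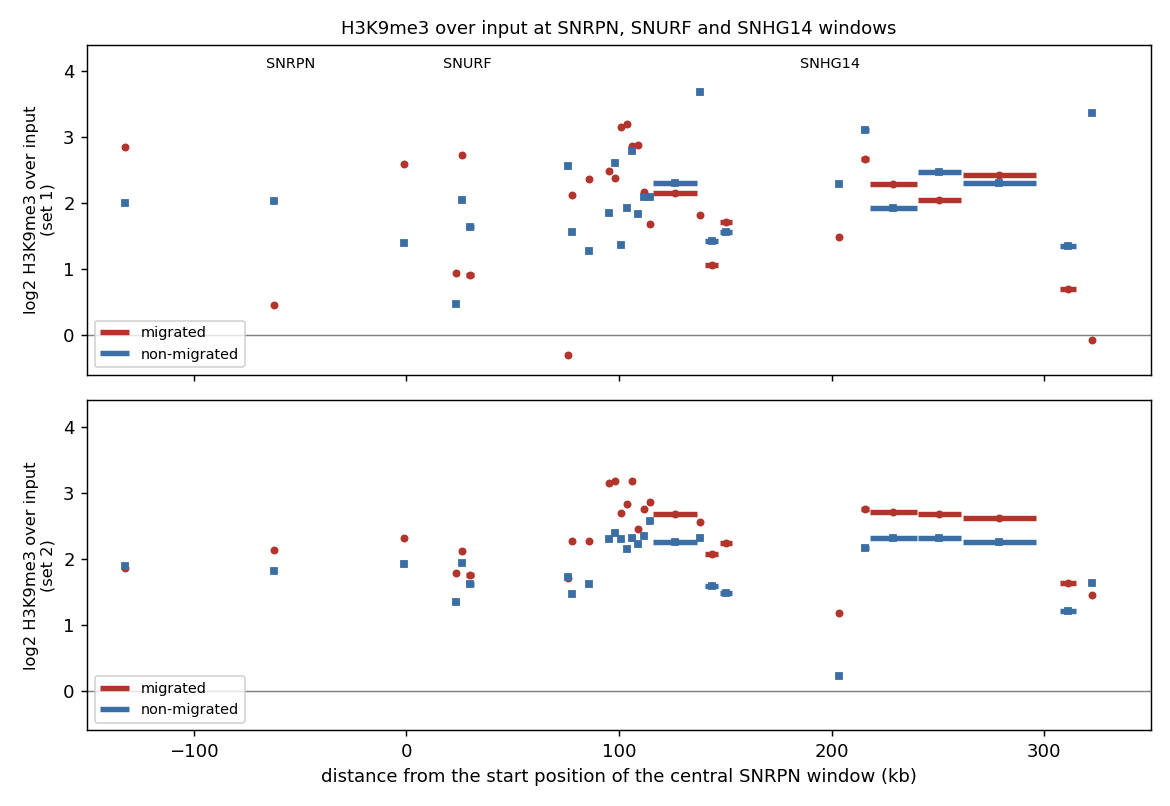
Log2 H3K9me3 over input (vertical axis) at the SNRPN, SNURF and SNHG14 windows against the distance in kb from the start position of the third SNRPN window, set 1 above and set 2 below. Red circles are migrated and blue squares non-migrated cells, each from 1 H3K9me3 and 1 input library, horizontal bars span the width of each window, and the grey line marks equal H3K9me3 and input after scaling. In set 2 the high SNHG14 stretches stand at 2.44 to 3.18 in migrated and 2.15 to 2.58 in non-migrated cells. In set 1 the same stretches stand at 1.69 to 3.19 and 1.37 to 3.68. All SNHG14 windows of both fractions range from 0.218 to 3.18 in set 2 and from -0.308 to 3.68 in set 1.

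Input read density also varied along SNHG14, in different patterns in the 2 sets. Relative to the median tested window, the input density of windows 4 to 13 had a median of 1.46 in set 2 and 0.904 in set 1. For windows 17 to 20 these were 1.36 in set 2 and 0.703 in set 1, and for windows 14 to 16 they were 0.605 in set 2 and 0.947 in set 1. The windows with more H3K9me3 over input were thus also those with more input reads in set 2. Across the 22 windows, which share libraries and repeated sequence, Spearman's rho of the set 2 input density with the ratio was 0.665 in migrated and 0.635 in non-migrated cells of set 2. With the ratios of set 1, whose reads are separate, it was 0.707 in migrated and 0.14 in non-migrated cells. The part of the input density in the level was not tested.

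**Figure D2:**
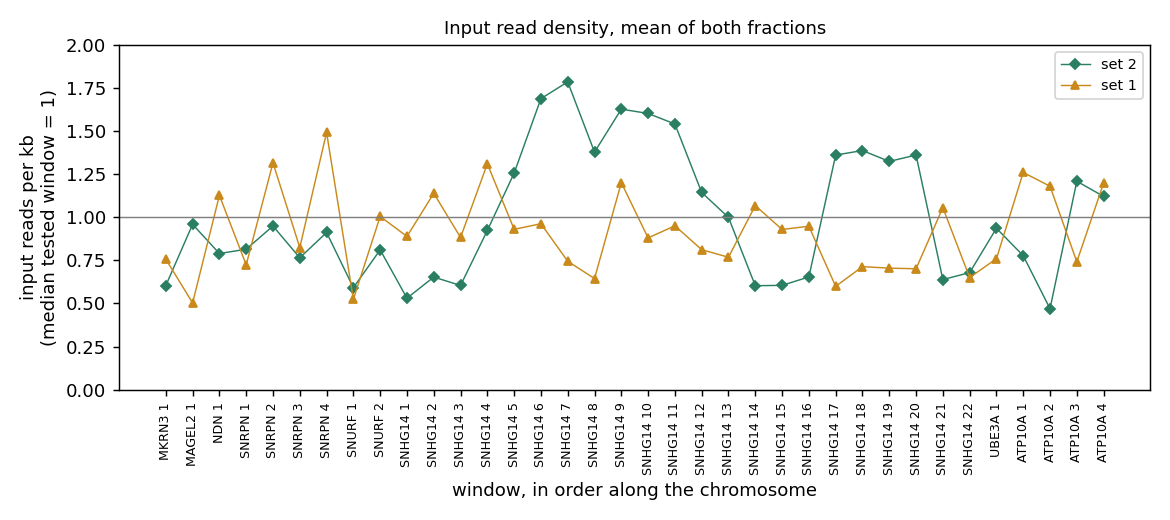
Input reads per kb at each of the 36 windows in chromosome order, as the mean of both fractions with the median tested window set to 1 (grey line), for set 2 (green diamonds) and set 1 (orange triangles). Lines join neighbouring windows only to guide the eye, and SNHG14 windows 17 to 20 sit at 1.32 to 1.39 in set 2 and at 0.599 to 0.713 in set 1.

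Single SNHG14 windows show the range. Window 8 (25305480 to 25307580) had the highest level, 2.82 ± 0.36 (SE), with 11 and 258 H3K9me3 reads in migrated cells of sets 1 and 2 over 10 and 48 input reads, against 23 and 230 over 7 and 64 in non-migrated cells. Its log2 ratios were 2.86 and 3.17 in migrated and 2.78 and 2.31 in non-migrated cells. Window 16 (25402368 to 25404468) had the lowest, 1.27 ± 0.38, with 9 and 39 H3K9me3 reads over 22 and 29 input reads in migrated cells, against 14 and 20 over 6 and 24 in non-migrated cells. Its log2 ratios were 1.48 and 1.18 in migrated and 2.29 and 0.22 in non-migrated cells, each below that of window 8. Windows 8 and 16 were picked as highest and lowest by a level made from these same ratios, so this order largely follows from the choice.

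Window 11 (25313579 to 25315679) was the median one at 2.36 ± 0.35, with log2 ratios of 1.69 and 2.86 in migrated and 2.10 and 2.58 in non-migrated cells. The most deeply read window was window 20, of 34.3 kb (25461764 to 25496106), with 166 and 3284 H3K9me3 reads over 206 and 906 input reads in migrated cells, against 244 and 3084 over 108 and 900 in non-migrated cells. Its level was 2.40 ± 0.10, and its ratios of 2.42 and 2.62 in migrated and 2.31 and 2.25 in non-migrated cells lay close together. The first and last windows named SNHG14, which were not matched to the ends of the gene, were lower. Window 1 (25275020 to 25277120) had ratios of -0.31 and 1.71 in migrated and 2.56 and 1.73 in non-migrated cells, and window 22 (25521490 to 25523590) had -0.08 and 1.45 in migrated and 3.37 and 1.64 in non-migrated cells. At both of these windows the fractions differed in set 1, on 2 H3K9me3 reads in migrated cells each, and by under 0.2 in set 2.

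SNURF and SNRPN, which share a transcript that encodes a small upstream protein and a spliceosome protein, had 6 windows with a median level of 1.89 (3.71-fold), below the SNHG14 median in both fractions of both sets. In set 2 the medians were 1.98 in migrated and 1.85 in non-migrated cells at SNRPN and SNURF, and 2.64 and 2.24 at SNHG14. The third SNRPN window (25198135 to 25200235) has its start position at 25200135, and without an hg19 annotation it was not matched to the imprinting centre. It had 10 and 101 H3K9me3 reads over 11 and 34 input reads in migrated cells, against 12 and 77 over 10 and 28 in non-migrated cells. Its log2 ratios were 2.60 and 2.32 in migrated and 1.39 and 1.92 in non-migrated cells, and its level was 2.09 ± 0.38. This window was neither the highest nor the lowest of the gene.

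Of the 2 SNRPN windows upstream of it, the first (25066794 to 25068894) had a level of 2.18 ± 0.36, with ratios of 2.85 and 1.86 in migrated and 2.00 and 1.89 in non-migrated cells. The second (25136894 to 25138994) had 1.69 ± 0.35, with 0.46 and 2.13 in migrated and 2.04 and 1.81 in non-migrated cells. The fourth (25222704 to 25224804) had the lowest level of the 6, 1.20 ± 0.37, with 0.94 and 1.79 in migrated and 0.46 and 1.35 in non-migrated cells. In set 2 the 4 SNRPN windows stood within 1.79 to 2.32 in migrated and 1.35 to 1.92 in non-migrated cells. The first SNURF window (25225141 to 25227241) had ratios of 2.73 and 2.11 in migrated and 2.05 and 1.94 in non-migrated cells, and the second (25228247 to 25232172) had 0.91 and 1.75 in migrated and 1.63 and 1.61 in non-migrated cells. Their levels were 2.19 ± 0.42 and 1.44 ± 0.29.

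The 3 intronless genes at the proximal end differed from each other. MAGEL2, which encodes a regulator of ubiquitin ligases in protein trafficking, had 8 and 175 H3K9me3 reads over 12 and 30 input reads in migrated cells, against 6 and 133 over 3 and 48 in non-migrated cells (window 23891075 to 23893175). Its ratios were 2.17 and 3.28 in migrated and 2.03 and 1.94 in non-migrated cells, with a level of 2.31 ± 0.45. NDN, which encodes the growth suppressor necdin, had 6 and 96 H3K9me3 reads over 23 and 36 input reads in migrated cells, against 17 and 74 over 9 and 28 in non-migrated cells (23932350 to 23934450). Its level was 1.77 ± 0.37, with ratios of 0.87 and 2.16 in migrated and 2.02 and 1.86 in non-migrated cells. MKRN3, a ubiquitin ligase gene whose loss causes early puberty in people, had 1 and 37 H3K9me3 reads over 7 and 24 input reads in migrated cells, against 6 and 20 over 11 and 25 in non-migrated cells (23808454 to 23810554). Its ratios were 0.41 and 1.37 in migrated and 0.31 and 0.16 in non-migrated cells, and its level of 0.65 ± 0.48 was not separable from input at this depth.

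UBE3A was the only member gene with a negative level, which did not pass the test for less H3K9me3 than input. Its window (25684028 to 25686128) had 1 and 22 H3K9me3 reads over 19 and 36 input reads in migrated cells, against 0 and 20 over 4 and 40 in non-migrated cells. The 0 reads of the set 1 non-migrated library allow up to 0.00182% of that library. With the pseudocount standing in for that 0, its level was -0.97 ± 0.53, at percentile 34.65 of all tested windows, and the set 2 ratios were 0.06 in migrated and -0.51 in non-migrated cells. The nearest member window to that of UBE3A, the last of SNHG14 (25521490 to 25523590), had set 2 ratios of 1.45 in migrated and 1.64 in non-migrated cells. It does not adjoin the UBE3A window, and any windows of other genes between them are not given.

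ATP10A encodes a phospholipid-transporting ATPase and lies at the distal end. Only the fourth of its windows (26110217 to 26112317) is on the gene's own strand. It had 14 and 190 H3K9me3 reads over 22 and 42 input reads in migrated cells, against 5 and 134 over 11 and 49 in non-migrated cells. Its ratios were 2.09 and 2.92 in migrated and 0.07 and 1.92 in non-migrated cells, with a level of 1.76 ± 0.38. The third window (26108442 to 26110542) overlaps it on the other strand and had ratios of 2.63 and 2.48 in migrated and 2.79 and 2.09 in non-migrated cells. The first 2 windows, also on the other strand and starting at 25981655 and 26061130, were lower, with levels of 1.21 ± 0.37 and 0.84 ± 0.44. Their set 2 ratios were 1.62 and 1.37 in migrated and 1.41 and 0.83 in non-migrated cells.

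In descending order of the median level over a gene's windows, SNHG14 (2.35) and MAGEL2 (2.31) came before SNRPN (1.89), SNURF (1.82) and NDN (1.77), and ATP10A (1.48), MKRN3 (0.65) and UBE3A (-0.97) came last. This level chose the genes, so the order is a description and was not tested. Single windows ranged from 1.27 to 2.82 at SNHG14 and from 0.84 to 2.51 at ATP10A, so they overlapped. MKRN3 (0.65 ± 0.48) and UBE3A (-0.97 ± 0.53) have 1 window each. In set 1 these rest on 1 and 1 H3K9me3 reads in migrated and 6 and 0 in non-migrated cells. The other genes of the region followed no single level. C15orf2 (24918541 to 24920641), an intronless gene between NDN and SNRPN now called NPAP1, was the only listed domain transcript with a window of its own and had 2.21 and 2.60 in migrated and 2.19 and 1.86 in non-migrated cells. Of 14 tested windows of 7 flanking genes, 5 were enriched and 1 was lower than input, against 11.9% and 31.3% of all tested windows. The enriched ones include NIPA1 and the lower one is NIPA2, both with libraries of set 1 that held no reads there. Windows of the receptor subunit gene GABRG3 ranged from 0.14 to 1.85. At the proximal edge NIPA1 had set 2 ratios of 0.82 in migrated and 0.96 in non-migrated cells and NIPA2 had -1.87 and 0.10. In set 1, NIPA1 had 0 input reads in migrated cells and NIPA2 had 0 H3K9me3 reads in both fractions, so no set 1 ratio is given. The single HERC2 window held no reads in any library.

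Imprinted genes elsewhere in the genome, taken from a list of such genes, had 63 tested windows of 30 genes with a median level of 0.17. Of these windows 15 were enriched and 13 were lower than input, against 11.9% and 31.3% of all tested windows. The 15q members, at a median of 2.14, were chosen for their level, so the difference between the lists was not tested. The 5 windows most like the median SNHG14 profile over its 4 ratios (2 fractions in 2 sets, at least 20 reads in each set 2 library, 14476 candidates outside chromosome 15) were those of GALR1 on chromosome 18 and of ZFP82, ZNF160, AC005498.1 and AC092279.1 on chromosome 19. Their root mean square differences from that profile were 0.071, 0.117, 0.13, 0.134 and 0.142.

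The study's design sets migrated against non-migrated cells. The rule for the members names no change between the fractions, but the genes were picked with earlier results of the same ratios known, so the values below are not fully independent of that choice. No member window had a change that passed the test, with 0 of 36 at an adjusted p under 0.05 in limma and every adjusted p at 0.999 or above. The same held for all tested windows, with 0 higher and 0 lower in migrated cells (0.0% of 36440 in each direction), and 608 higher and 675 lower at an unadjusted p under 0.05. At that unadjusted level 7 of the 36 member windows were higher in migrated cells and none was lower. Of 4299 enriched windows other than members, 217 passed it in either direction, as did 1283 of all 36440. The median SE of the change was 0.418 at the members, 0.504 at those enriched windows and 0.663 over all tested windows. These counts thus compare windows of unlike precision, and the difference was not tested. The median change of the members was 0.385 (range -0.779 to 1.16), against -0.0128 over all tested windows, and 32 of 36 were positive, against 49.2% of all tested windows, under TMM. With the constants the authors had deposited in place of TMM this direction turned, to a median of -0.534, but the median of all tested windows then lay at -0.943 and 27 of the 36 members were above it.

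The 2 sets did not give the same size of change. In set 2 the median change was 0.414 and 33 of 36 windows were positive, whereas in set 1 it was 0.0855 and 20 were positive. In both sets together 19 windows (52.8%) were positive, against 23.9% of all tested windows. Windows enriched for H3K9me3 elsewhere in the genome also had mostly positive values, with a median change of 0.278, 73.4% positive, and 39.8% positive in both sets. The medians of those 4299 windows were 0.0702 in set 1 and 0.297 in set 2. Whether the members differ in this from other marked windows was not tested.

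The 7 windows at an unadjusted p under 0.05 were those of MAGEL2, the fourth of ATP10A and windows 4, 7, 8, 18 and 20 of SNHG14. At MAGEL2 the change was 1.08 ± 0.47 (SE), made up of 0.14 in set 1 and 1.35 in set 2, and it was -0.304 without the migrated and -0.327 without the non-migrated input of set 2. At ATP10A it was 1.01 ± 0.42, with 2.02 in set 1 and 1.01 in set 2. Both values were positive in both sets, with sizes that differed between the sets. At the widest SNHG14 windows the estimates were smaller and more precise, 0.39 ± 0.15 at window 18, which had the smallest unadjusted p of the members (0.0151), and 0.31 ± 0.15 at window 20. Windows 4, 7 and 8 had 0.85 ± 0.41, 0.74 ± 0.35 and 0.80 ± 0.38.

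At the other windows given in full, the change lay within 2 SE of 0. MKRN3 had the largest estimate, 1.16 ± 0.69, on 37 against 20 H3K9me3 reads in set 2. UBE3A had 0.60 ± 0.69 and NDN 0.09 ± 0.49, with set values of -1.14 and 0.30 at NDN. At the third SNRPN window the change was 0.63 ± 0.50 and at the fourth 0.72 ± 0.49, while the first and second had 0.18 ± 0.49 and 0.04 ± 0.47. The SNURF windows had 0.18 ± 0.56 and -0.09 ± 0.38, and the first 3 of ATP10A had 0.38 ± 0.50, 0.42 ± 0.70 and 0.31 ± 0.41. Of SNHG14, windows 1 and 22 had -0.58 ± 0.62 and -0.78 ± 0.61, window 11 had 0.26 ± 0.36 and window 16 had 0.44 ± 0.60.

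**Figure D3:**
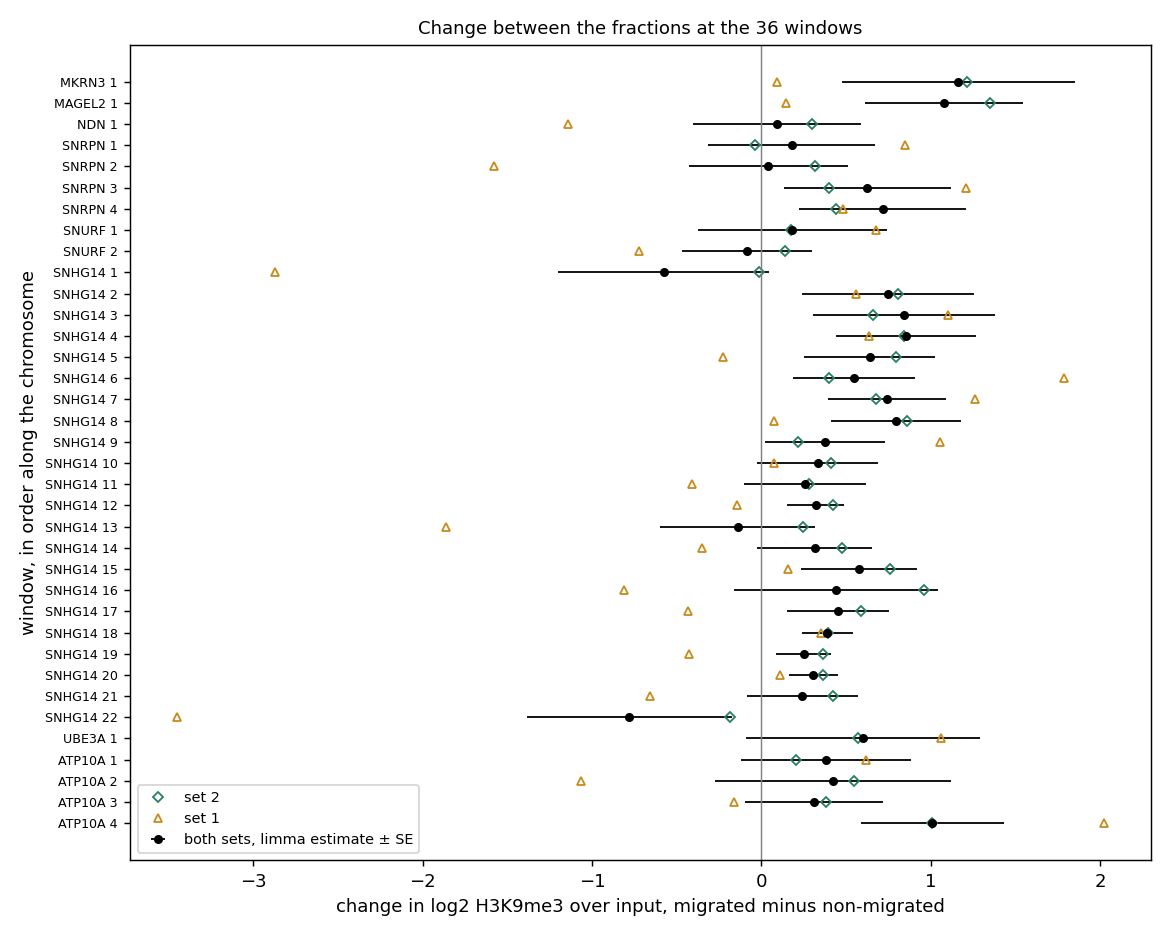
Change in log2 H3K9me3 over input, migrated minus non-migrated (horizontal axis), at each of the 36 windows from top to bottom in chromosome order. Black points with bars are the limma estimate over both sets ± SE, green diamonds are set 2 and orange triangles set 1, and the grey line marks no change. Most green diamonds lie right of the line (33 of 36), while the orange triangles lie on both sides (20 of 36 right of it).

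Summed over all windows the reads are many, and the difference between the sets is plain. The 36 windows took up 0.901% (95% Wilson interval 0.841 to 0.965) of the window reads of the migrated H3K9me3 library of set 1, against 0.742% (0.702 to 0.785) of the non-migrated one. In set 2 they took up 1.42% (1.4 to 1.44) in migrated and 1.11% (1.09 to 1.13) in non-migrated cells. The inputs held 0.19% in migrated and 0.17% in non-migrated cells of set 1, and 0.236% and 0.228% in set 2. After scaling, the log2 change of the summed reads was -0.00877 in set 1 and 0.421 in set 2, with counting errors of 0.0953 and 0.037, a mean of 0.206 ± 0.304 (SD, n = 2). These intervals cover counting error only, since reads without molecular identifiers are not independent molecules, and 2 sets allow no test of this sum.

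The 4 widest SNHG14 windows alone held 0.941% of the window reads of the migrated and 0.756% of the non-migrated H3K9me3 library of set 2, so the sum is mostly a measure of those windows. The 14 windows of the other 7 genes gave a change of 0.118 in set 1 and 0.504 in set 2, with counting errors of 0.236 and 0.108. SNHG14 had -0.0414 in set 1 and 0.414 in set 2. With the deposited constants in place of TMM both groups stayed positive in set 2 (0.34 at the other genes and 0.251 at SNHG14). In set 1 they were far below 0 (-1.82 and -1.98). The same constants put the median change of all tested windows, over both sets, at -0.943, so a shift below 0 over both sets was not confined to the members. No value over all windows was computed for set 1 alone with these constants.

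**Figure D4:**
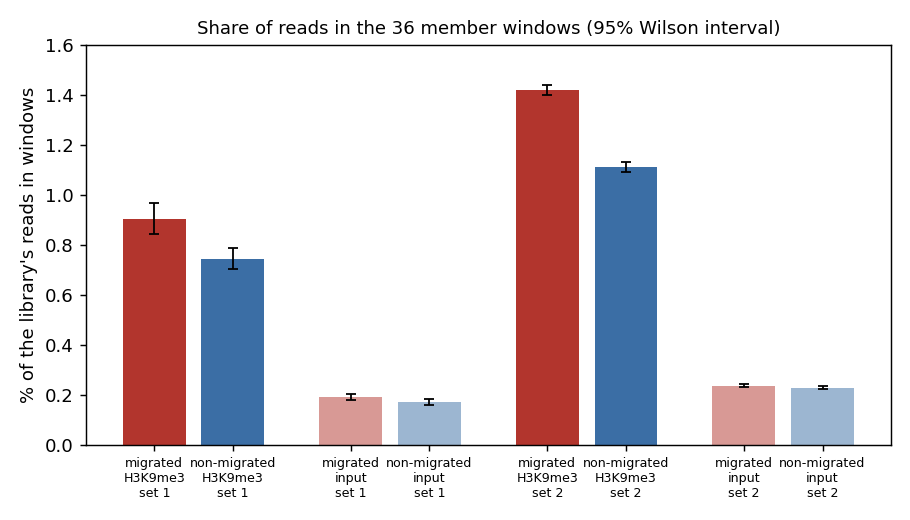
Share of each library's reads in promoter windows that fell in the 36 member windows (vertical axis, percent), for migrated (red) and non-migrated (blue) cells, with H3K9me3 in full colour and input in pale colour. Black bars are 95% Wilson intervals for counting error, and the H3K9me3 shares of 1.42% against 1.11% in set 2 and 0.901% against 0.742% in set 1 stand above all inputs.

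The input libraries, which follow the number of gene copies and the ease of sequencing, were compared between the fractions at the same windows. No member window changed in input (0 of 36 at an adjusted p under 0.05 in limma), nor did any tested window in either direction (0.0% of 36440), with 199 higher and 371 lower at an unadjusted p under 0.05. The members' median input difference, migrated minus non-migrated, was 0.0341, with a range of -0.507 to 0.726. The most positive was at SNHG14 window 22, with 17 and 3 input reads in migrated and non-migrated cells of set 1, and the most negative at the fourth SNRPN window, with 15 and 21.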

How the data were processed

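Per the labels' protocols, H3K9me3 and input libraries of both fractions were made in 2 sets. Set 1 used a TruSeq kit with gel extraction and had many duplicates, and set 2 used beads and an NEB Ultra kit. Tools in the submitters' processing notes are Bowtie2 2.2.9, SAMtools 1.3 and FastQC 0.11.5, with the build hg19. The deposited values are log2 per the file headers. Each is a whole number of reads on the log2 scale, shifted by a constant that the authors set for the library, with 0.9 in place of 0 reads. Reads recovered from them were whole within 0.01 for 100% of values. Because the unit was log2, the tests used limma 3.58.1 in R 4.3.3 (voom weights, pseudocount 0.5, TMM trimming 30% by ratio and 5% by level) on these reads. Windows needed the level of 10 reads in a median library in at least 2 libraries and 15 reads in total. The model held set, ChIP, their product, fraction, and fraction by ChIP, with 2 residual and 33.1 prior degrees of freedom, and p-values were adjusted (Benjamini-Hochberg) over all 36440 tested windows. Set was a block since the series text pairs the sets. Across windows, the 2 fractions of a set deviated from their group means together (r = 0.147 for H3K9me3, r = 0.469 for input). Most windows (36796) span 2000 bases before to 100 after a start position, 1360 are wider, and a window is named for a gene it overlaps, on either strand. The members and lists were chosen with earlier results of these data known. Full values are given for every window of the 7 genes other than SNHG14 and for the first, last, highest, median, lowest and most-read windows of SNHG14; windows 4, 7 and 18 were added after their values were seen. Promoters came from RefSeq (GRCh38.p14). 1 set 1 library (migrated H3K9me3) has replicate numbers that differ between title and description, and the title was followed. The fit was also run on simulated data that had the same dispersion at every window and no set or ChIP effect. That run therefore does not give error rates for these libraries. The alternatives tried were scaling, filter, weights, block, pseudocount, overlapping windows, and each library or set 1 left out.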

Additional observations from a re-analysis of the deposited data

How the results depend on the processing

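0 member windows passed the test for a change under all alternatives run, with a smallest adjusted p of 0.12 (SNHG14 window 22 without the set 2 non-migrated H3K9me3 library) and 0.999 as reported. Over all tested windows the number of calls was 0 under every alternative that kept all libraries. With 1 library left out it ranged from 0 to 184: in set 2 it was 184 when non-migrated H3K9me3 was left out and 12 when migrated H3K9me3 was, 12 when the non-migrated one of set 1 was left out, 97 when the migrated one was, and 1 without each input of set 1, where the lone library is assumed to vary like the other groups. Without the replicate block the number stayed at 0 and the members' median change was 0.359. The median level over input (2.14) moved to 2.04 with median-of-ratios scaling, to 1.16 with the deposited constants and to 2.42 with no filter, and lay between 1.94 and 2.38 with 1 library left out. The median change was 0.192 to 0.464 with 1 library left out. The summed change has no such range, because leaving out 1 library leaves only the other set. It was -0.00877 in set 1 alone and 0.421 in set 2 alone. With the deposited constants the median and the summed change were -0.534 and -0.844, and the median change of all tested windows was -0.943. The summed change was then -1.95 in set 1 and 0.257 in set 2, and the cause of this was not tested. With the deposited constants the change turned at single windows: to -0.126 at MKRN3, -1.05 at NDN, -0.544, -1.24, -0.0996 and -0.29 at SNRPN windows 1 to 4, -0.501 at the first SNURF window, -0.0713 at UBE3A, -0.46, -0.963 and -0.688 at ATP10A windows 1 to 3, and -0.169, -0.259, -0.756, -0.653, -0.626 and -0.776 at SNHG14 windows 4, 8, 11, 16, 18 and 20. Without precision weights it was -0.421 at NDN, -0.63 at the second SNRPN window, -0.259 at the second ATP10A window and -0.0636 at SNHG14 window 11, without the replicate block -0.168 at NDN and -0.288 at the second SNRPN window, which had -0.011 with a pseudocount of 2, and in set 2 alone -0.0379 at the first SNRPN and 0.142 at the second SNURF window; the cause was not tested. With 1 library left out, the change crossed 0 at MAGEL2 (-0.327 to 1.42), MKRN3 (-0.773 to 2.29), NDN (-1.06 to 0.291), UBE3A (-0.607 to 2.09), SNRPN windows 1, 2 and 4 (-0.0397 to 0.881, -1.4 to 0.254, -0.268 to 1.57), SNURF (-0.266 to 1.04, -0.609 to 0.131), ATP10A windows 2 and 3 (-1.65 to 1.25, -0.0948 to 0.399) and SNHG14 windows 11 and 16 (-0.479 to 0.368, -0.373 to 0.726). Single windows of set 1, at 0 to 21 H3K9me3 reads outside SNHG14, limit what can be read from 1 window, and the wide SNHG14 windows are the most precise.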
